A study of Mus musculus with 24 samples.

Results

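The genes described here encode the subunits of the proteasome and the proteins that bind it, taken as every gene whose symbol begins with Psma, Psmb, Psmc, Psmd, Psme or Psmf. The interferon-inducible catalytic genes Psmb8, Psmb9 and Psmb10 were left out. The rule found 43 genes among the 17583 gene symbols paired with the array's probes, and these 43 genes have 70 of its 45719 probes. Of these genes, 41 encode parts or partners of the proteasome, and the other two match by prefix only: Psmc3ip, a factor of meiotic recombination, and Psme3ip1, a nuclear protein that binds the activator Psme3.

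RNA came from primitive erythroid (EryP) cells, the first red cell lineage of the mouse embryo, which arises in the yolk sac and enters the circulation as a wave of nucleated cells that mature together. All 7 groups carried the transgene human epsilon globin::H2B-EGFP, a green fluorescent histone controlled by human epsilon-globin sequences, and GFP(+) cells were sorted by flow cytometry, so the sort took cells in which those sequences were active. The 24 arrays cover E7.5 (3 arrays) and E8.5 (3 arrays) with 2 rounds of RNA amplification, and E8.5 (6 arrays) and each later day to E12.5 (3 arrays each) with 1 round. Whole embryos, dissociated with collagenase, were the source up to E9.5, and blood drained from embryos was the source from E10.5 onwards. A replicate was a pool of embryos up to E10.5 and a single embryo at E11.5 and E12.5, so the source of the cells and the pooling change with stage.

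The proteasome is the protease that degrades proteins tagged with ubiquitin. Its core particle is a barrel of alpha rings (Psma genes), which form the gate, and beta rings (Psmb genes), of which Psmb5, Psmb6 and Psmb7 carry the active sites. The regulatory particle caps the barrel: its base holds the ring of ATPases that unfold substrates (Psmc genes) and the scaffold and ubiquitin receptor subunits Psmd1, Psmd2 and Psmd4, and its lid holds Psmd14, the enzyme that removes ubiquitin chains. The Psme genes encode alternative caps that open the barrel without ATP: Psme1 and Psme2 form a heteromeric ring, Psme3 a nuclear one, and Psme4 is a large single-chain cap best known from the testis. Maturing red cells lose most of their proteins and organelles, and ubiquitin and the proteasome are known to act in that clearance.

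Levels are given on a log2 scale after background correction and quantile normalization, with 1 probe per gene, so levels of different genes are not comparable. The 4 slides hold 6 arrays each: the arrays with 2 rounds fill slide 1, E8.5 replicates 1 to 3 and E9.5 lie on slide 2, E8.5 replicates 4 to 6 and E12.5 on slide 3, and E10.5 and E11.5 on slide 4. The arrays detected 12355 to 15387 probes with 1 round up to E11.5, but 10570, 9488 and 8542 at E12.5, and 30 to 32 of the 43 proteasome genes at E12.5 against 35 to 40 at the earlier stages. The 7 primitive erythroid markers with a probe were all detected on every array with 1 round, and their summed signal was 24223 to 45417 at E8.5 and 61448 to 62184 at E12.5. The 8 visceral endoderm markers with a probe summed to 110 to 616 at E8.5 and 44.3 to 61.8 at E12.5, where all 8 were undetected, and the 3 epiblast markers to 265 to 681 and 38.1 to 62.0, with Pou5f1 and Fgf5 undetected at both stages. The 5 macrophage and leukocyte markers summed to 58.7 to 130 at E8.5, mostly Laptm5, and, all undetected, to 31.0 to 37.3 at E12.5. The 7 endothelial markers summed to 300 to 493 at E8.5 and 1492 to 1743 at E12.5, where Pecam1, Cdh5, Tek, Cldn5 and Esam were undetected. The E12.5 sum was that of Kdr (10.36, 10.57 and 10.52, log2) and Emcn (7.49, 7.74 and 7.75). Of the 6 endothelial markers tested, 2 were called higher at E12.5 than at E8.5 and 4 lower. The part of these shifts in the results below was not tested, and in sorted bulk cells fewer cells of a type and less RNA per cell cannot be told apart.

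Under quantile normalization, transcripts of most core particle genes fell between E8.5 and E12.5 while those of the caps Psme2, Psme3 and Psme4 rose, of which Psme2 turned to -0.16 on the log2 scale without normalization between arrays. The median of the 13 core genes tested stood at -0.37 on the log2 scale relative to E8.5 after 1 day, at -0.45 on the next, -0.92 by E11.5 and -1.30 by E12.5. The 15 regulatory particle genes tested had shallower medians of -0.23, -0.23, -0.71 and -0.86 against all E8.5 arrays. Within slide 2 alone, the E9.5 medians relative to E8.5 were alike, at -0.24 in the core and -0.26 in the regulatory particle. The 4 activator genes went the other way to a median of 1.72 at E12.5. The median of all 9412 genes tested stayed between -0.07 and -0.02 at these stages. At E12.5 these medians depend on the scaling: the core median was below 0 under 5 normalizations, the regulatory particle median was 0.12 under cyclic loess and 0.01 under median scaling, and the activator median was -0.05 without normalization between arrays.

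**Figure D1:**
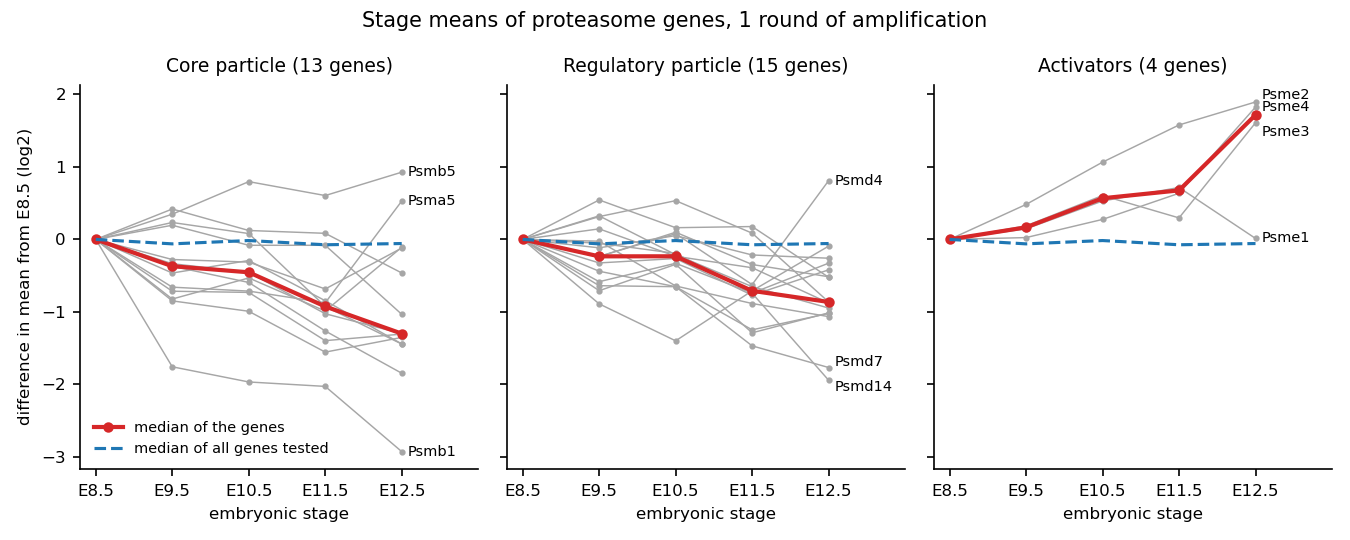
Stage means of the proteasome genes minus their mean at E8.5 (log2, vertical axis) by embryonic stage (horizontal axis) on arrays with 1 round of amplification; grey lines are genes, the red line is their median and the blue dashed line the median of all 9412 genes tested. The core median declines to -1.30 and the regulatory particle median to -0.86 at E12.5 (0.12 under cyclic loess and 0.01 under median scaling), and the activator median rises to 1.72 (-0.05 without normalization between arrays).

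An F test over the 5 stages (limma, adjusted p under 0.05) called 35 of the 39 proteasome genes tested, beside 77.8% of all genes tested, so a stage difference as such does not set these genes apart. All 13 core genes tested were among the 35, as were 12 of 15 regulatory particle genes. Of the called genes, 8 of 13 core and 7 of 12 regulatory particle genes peaked at E8.5 by their stage mean, against 31.4% of all called genes. None of these core genes was highest at E10.5 or E11.5, 3 were highest at E9.5, and Psma5 and Psmb5 were highest at E12.5.

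In the alpha ring, 4 of the 6 genes tested fell between E8.5 and E12.5 and none rose. Psma4, a gate subunit, had a level of 10.04 to 10.51 at E8.5 (median 10.29, n = 6), then 10.02, 9.83 and 9.90 on the E9.5 arrays, 9.97, 9.64 and 9.46 on those of E10.5, 9.16, 8.92 and 8.98 on those of E11.5, and 8.29, 8.66 and 8.37 on those of E12.5. Every E12.5 value of Psma4 lay below every value of the earlier stages, and E12.5 was 3.59-fold below E8.5 (log2 difference -1.84 ± 0.17 SE, adjusted p = 2.06e-09, limma). Within slide 3, which holds both stages, the difference was -1.68.

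Psma3, another alpha subunit, had levels of 10.40 to 11.52 at E8.5 (median 10.79), 11.14, 10.90 and 11.18 on the E9.5 arrays, 11.12, 10.88 and 10.78 on those of E10.5, 9.89, 9.97 and 9.90 on those of E11.5, and 9.30, 9.62 and 9.28 on those of E12.5. The drop of Psma3 fell between E10.5 and E11.5, where the values did not overlap. From E8.5 to E12.5 the log2 difference of Psma3 was -1.44 ± 0.21 (adjusted p = 1.98e-06), and -1.08 within slide 3. Psma1 (-1.31 ± 0.19) and Psma7 (-1.30 ± 0.17) fell by similar amounts. These 4 alpha genes kept their direction and their call under all 24 alternatives run for single genes.

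Psma2 and Psma5 did not pass the test between E8.5 and E12.5, and for both the E8.5 arrays split by slide. Psma2 had 11.37, 11.43 and 11.59 on slide 2 and 12.69, 12.65 and 12.51 on slide 3 at E8.5, then 11.31, 11 and 11.35 on the E9.5 arrays, 11.62, 11.45 and 11.46 on those of E10.5, 10.92, 11.06 and 11.18 on those of E11.5, and 11.80, 11.93 and 12.07 on those of E12.5. Psma5 had 4.56, 4.55 and 4.72 on slide 2 and 6.07, 6.0 and 5.99 on slide 3 at E8.5. It was detected on 1 of 3 arrays at E9.5 and E10.5 and on none at E11.5, and read 6.24, 5.30 and 6.0 at E12.5. The high values of Psma5 thus all lie on slide 3, and E12.5 minus E8.5 within slide 3 was -0.18.

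In the beta ring, 5 of 7 genes fell from E8.5 to E12.5 and Psmb5 rose. Psmb1 had the largest fitted fall of the 39 genes tested, while Psmc2 and Psmc3ip also fell but were detected on no E12.5 array, so that their falls are known only as bounds. Its level was 8.33 to 9.26 at E8.5 (median 8.66), 6.84, 6.97 and 6.98 on the E9.5 arrays, 6.57, 6.79 and 6.80 on those of E10.5, 6.67, 6.68 and 6.62 on those of E11.5, and 5.18, 6.56 and 5.54 on those of E12.5. Most of the fall of Psmb1 came between E8.5 and E9.5, where the values did not overlap, and the E12.5 arrays were spread (SD 0.71). E12.5 was 7.59-fold below E8.5 (log2 difference -2.93 ± 0.23, adjusted p = 2.16e-10), and -3.20 within slide 3.

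Psmb2 had levels of 10.19 to 10.65 at E8.5 (median 10.40), 9.92, 9.83 and 10.04 on the E9.5 arrays, 10.35, 9.90 and 10.07 on those of E10.5, 9.55, 9.73 and 9.37 on those of E11.5, and 8.83, 9.01 and 9.02 on those of E12.5. Its E12.5 values lay below all others (log2 difference from E8.5 -1.44 ± 0.16, adjusted p = 5.4e-08), but the other probe of Psmb2 tested gave 0.22 ± 0.16 and did not pass. Psmb4 fell by 1.35 ± 0.24 and Psmb3 by 1.03 ± 0.19 on the log2 scale under the main scaling, and under cyclic loess both differences shrank to -0.01 and -0.09.

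The catalytic beta genes went different ways. Psmb5, the chymotrypsin-like subunit, had levels of 8.12 to 9.25 at E8.5 (median 8.88), 8.80, 9.45 and 9.19 on the E9.5 arrays, 9.80, 9.77 and 9.22 on those of E10.5, 9.39, 9.32 and 9.5 on those of E11.5, and 9.5, 9.48 and 10.19 on those of E12.5. All E12.5 values of Psmb5 lay above those of E8.5 (log2 difference 0.93 ± 0.23, adjusted p = 0.0009, and 1.16 within slide 3), and the difference was -0.74 without normalization between arrays. Psmb6, the caspase-like subunit, had 10.91 to 11.71 at E8.5 (median 11.12), 10.81, 10.80 and 11.23 on the E9.5 arrays, 10.99, 10.87 and 10.87 on those of E10.5, 10.55, 10.60 and 10.47 on those of E11.5, and 10.71, 11.18 and 11.42 on those of E12.5, and its difference from E8.5 of -0.12 ± 0.20 did not pass. Psmb7, the trypsin-like subunit, fell by 0.46 ± 0.17 (adjusted p = 0.0187), a difference of 0.63 under cyclic loess. Both other probes of Psmb7 tested were called lower too, by 1.49 ± 0.17 and 0.55 ± 0.16.

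**Figure D2:**
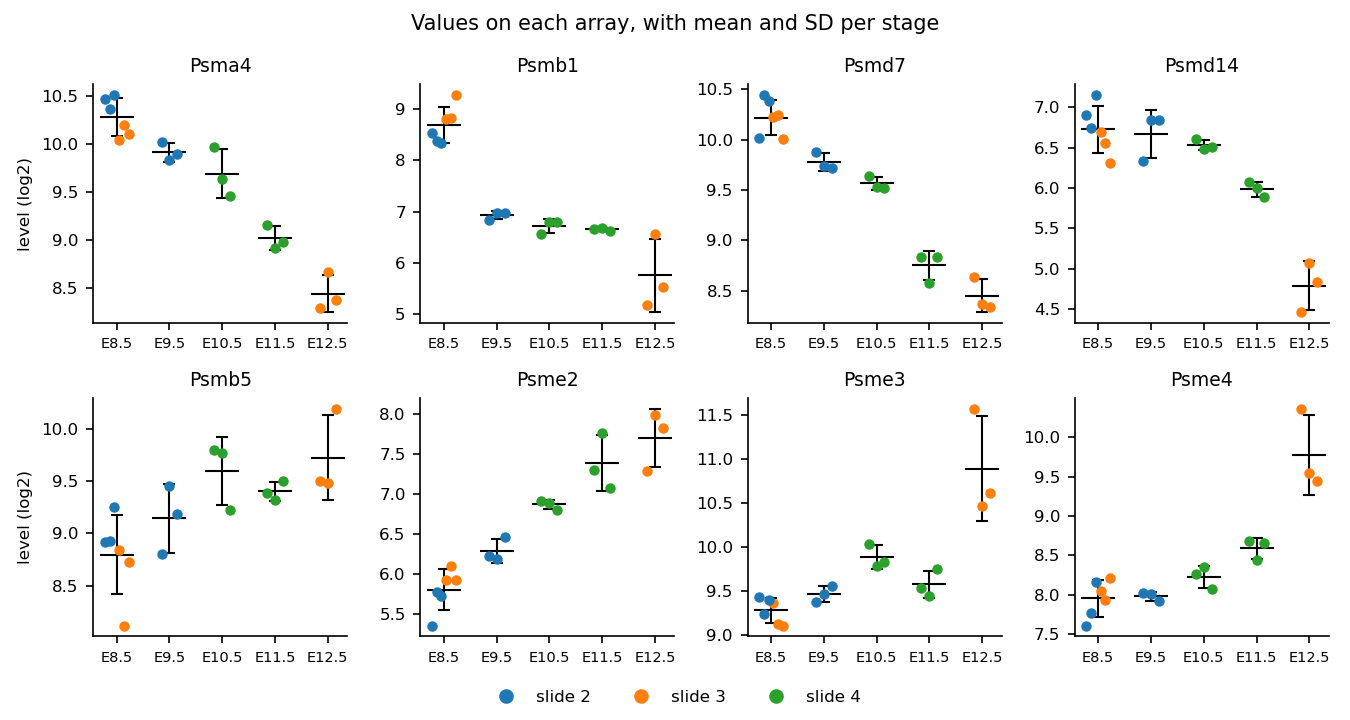
Level of 8 proteasome genes on each array with 1 round (log2, vertical axis, own scale per gene) by stage; points are arrays coloured by slide, and bars are the mean and SD. Psma4, Psmb1, Psmd7 and Psmd14 end at E12.5 below their E8.5 values, and Psmb5, Psme2, Psme3 and Psme4 above them; these directions hold under quantile normalization, Psmd14 turns to 0.11 under median scaling, and Psmb5 and Psme2 turn to -0.74 and -0.16 without normalization between arrays.

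The promoters of 4 of these genes are shown because the genes moved in opposite directions: Psma4 and Psmd14 fell, and Psmb5 and Psme4 rose. RefSeq gives promoters (250 bases before to 50 after the start, build GRCm38.p6) for 36 of the 43 genes. Capitals mark every match, on either strand, of the ETS core CGGAAG and of the core of the antioxidant response element TGACNNNGC. Psma4 and Psmd14 hold the ETS core, Psmb5 the antioxidant element and Psme4 both, the ETS core first. The antioxidant response element is bound by Nfe2l1 and Nfe2l2, and Nfe2l1 is known to drive proteasome genes when the proteasome is inhibited.
Psma4, chr9:54950609-54950908, plus strand: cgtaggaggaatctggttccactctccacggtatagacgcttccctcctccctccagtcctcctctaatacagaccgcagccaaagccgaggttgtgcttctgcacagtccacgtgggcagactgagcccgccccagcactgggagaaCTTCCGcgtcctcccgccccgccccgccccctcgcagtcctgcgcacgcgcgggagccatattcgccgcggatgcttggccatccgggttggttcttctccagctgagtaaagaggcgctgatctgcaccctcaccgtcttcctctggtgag
Psmd14, chr2:61711444-61711743, plus strand: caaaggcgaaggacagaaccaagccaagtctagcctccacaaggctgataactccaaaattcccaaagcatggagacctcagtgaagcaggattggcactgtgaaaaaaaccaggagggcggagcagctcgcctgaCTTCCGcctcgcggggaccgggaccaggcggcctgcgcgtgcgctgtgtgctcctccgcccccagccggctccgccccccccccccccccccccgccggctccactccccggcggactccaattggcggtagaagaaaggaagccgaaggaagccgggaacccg
Psmb5, chr14:54617946-54618245, minus strand: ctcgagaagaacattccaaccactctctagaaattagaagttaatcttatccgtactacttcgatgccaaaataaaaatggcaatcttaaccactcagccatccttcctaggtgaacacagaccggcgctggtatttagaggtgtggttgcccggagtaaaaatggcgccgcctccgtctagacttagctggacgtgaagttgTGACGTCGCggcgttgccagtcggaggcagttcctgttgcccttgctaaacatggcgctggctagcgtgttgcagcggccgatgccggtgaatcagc
Psme4, chr11:30771525-30771824, plus strand: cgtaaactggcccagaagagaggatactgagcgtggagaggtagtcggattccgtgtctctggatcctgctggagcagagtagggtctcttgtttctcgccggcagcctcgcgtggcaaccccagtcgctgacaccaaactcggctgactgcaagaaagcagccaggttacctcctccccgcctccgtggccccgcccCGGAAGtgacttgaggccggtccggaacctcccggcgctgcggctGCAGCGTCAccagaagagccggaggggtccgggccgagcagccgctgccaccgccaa

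The ETS core stood in the promoters of 22 of the 36 genes, against 16.9% of all 32851 promoters of this length in the table. Genes called lower at E12.5 than at E8.5 held it in 11 of 15 promoters and genes called higher in 3 of 7. TGACNNNGC stood in 6 of the 36 (Psmb5, Psmb6, Psmc6, Psmd9, Psmd12 and Psme4), against 12.4% of all promoters, in 2 of the 7 higher and 1 of the 15 lower genes. The CCAAT box (CCAAT) stood in 15 of 36, against 37.4%, and the GATA core (AGATAA) in 3 of 36, against 11.2%. Both strands were searched for each motif, and in these genes no match of one motif overlapped a match of another. A match describes letters in this window and is no measured binding site.

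In the ATPase ring, 4 of the 5 genes tested fell from E8.5 to E12.5 and none rose under quantile normalization, whereas the differences of Psmc3 (0.24) and Psmc5 (0.35) were positive under cyclic loess. Psmc4 had levels of 10.24 to 10.99 at E8.5 (median 10.53), 10.06, 9.70 and 10.07 on the E9.5 arrays, 9.94, 9.85 and 10 on those of E10.5, 9.17, 9.36 and 9.47 on those of E11.5, and 9.64, 9.67 and 9.36 on those of E12.5. Its values at E9.5 and later lay below all those of E8.5 (E12.5 minus E8.5 -1.02 ± 0.19, adjusted p = 4.7e-05, and -1.32 within slide 3). Psmc2 was detected on all arrays up to E11.5 and on none at E12.5, which bounds its fall from E8.5 at no less than 1.35-fold, though its difference was 1.45 under median scaling. Psmc1 was detected on 4 of 6 arrays at E8.5 and none at E12.5, with 7.31 on E9.5 replicate 3 against 5.13 and 4.53 on the other replicates, and did not pass the test.

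Among the base subunits without ATPase activity, Psmd1, the larger scaffold, fell by 1.06 ± 0.26 from E8.5 to E12.5 on the log2 scale, with overlapping values, and gave 0.02 under cyclic loess. Psmd2, the other scaffold, had levels of 5.36 to 6.51 at E8.5 (median 5.86), 6.65, 5.66 and 6.38 on the E9.5 arrays, 6.48, 6.5 and 6.36 on those of E10.5, 6.07, 6.15 and 5.78 on those of E11.5, and 5.40, 5.0 and 4.76 on those of E12.5, where 1 of 3 arrays detected it. The E8.5 values of Psmd2 on slide 3 (5.60, 5.40 and 5.36) were the low ones and overlapped those of E12.5, and the difference within slide 3 was -0.40, that under cyclic loess 0.12 and that under median scaling 1.01.

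Psmd4, the ubiquitin receptor of the base, moved against the rest of the regulatory particle. Its level was 10.16 to 11 at E8.5 (median 10.83), 10.48, 10.28 and 10.72 on the E9.5 arrays, 10.82, 10.80 and 10.80 on those of E10.5, 9.81, 10.31 and 10.19 on those of E11.5, and 11.77, 11.23 and 11.61 on those of E12.5. The values of Psmd4 dipped at E11.5 and were all above the other stages at E12.5, 0.81 ± 0.20 above E8.5 (adjusted p = 0.000803) and 0.60 within slide 3, but -0.77 without normalization between arrays.

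In the lid, 4 of the 7 genes tested fell from E8.5 to E12.5. Psmd14, the deubiquitinating enzyme of the lid, had levels of 6.31 to 7.15 at E8.5 (median 6.72), 6.33, 6.85 and 6.84 on the E9.5 arrays, 6.61, 6.48 and 6.51 on those of E10.5, 6.07, 6.0 and 5.89 on those of E11.5, and 4.46, 5.07 and 4.83 on those of E12.5, where 1 of 3 arrays detected it. The E11.5 values of Psmd14 lay below all earlier ones and the E12.5 values below those of E11.5. E12.5 minus E8.5 was -1.94 ± 0.19 (adjusted p = 3.89e-09) and -1.73 within slide 3, but 0.11 under median scaling, which moved the median of all genes to 1.72.

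Psmd7, a structural partner of Psmd14, had levels of 10.01 to 10.44 at E8.5 (median 10.23), 9.88, 9.74 and 9.72 on the E9.5 arrays, 9.64, 9.53 and 9.52 on those of E10.5, 8.83, 8.58 and 8.83 on those of E11.5, and 8.64, 8.37 and 8.34 on those of E12.5. E8.5 did not overlap any later stage, and E12.5 was 3.40-fold lower (log2 difference -1.77 ± 0.16, adjusted p = 1.24e-09, and -1.70 within slide 3). Both other probes of Psmd7 tested gave falls too, of 1.40 ± 0.19 and 0.91 ± 0.19. Psmd7 was the 1 regulatory particle gene that kept its direction and its call for E12.5 against E8.5 under all 24 alternatives.

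Psmd3, another lid subunit, had levels of 10.94 to 12.23 at E8.5 (median 11.56), 11.09, 10.59 and 10.88 on the E9.5 arrays, 11.27, 11.20 and 11.17 on those of E10.5, 10.31, 10.03 and 10.46 on those of E11.5, and 11.12, 10.40 and 10.12 on those of E12.5. The E8.5 arrays of slide 3 were the highest, and E12.5 minus E8.5 was -1.01 ± 0.25 (adjusted p = 0.00107) with overlapping values and 0.16 under cyclic loess. Psmd12 was detected on 1 of 3 arrays at E12.5 and fell by 0.95 ± 0.23, also with overlapping values, but gave 1.24 under median scaling. Psmd6, Psmd8 and Psmd13 did not pass, and Psmd8 read 9.20, 6.83 and 8.29 at E10.5, a spread of over 2 log2 units among 3 arrays.

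Set side by side for E12.5 against E8.5, the core and regulatory particles had similar shares of called genes, with 9 of 13 core genes lower and 1 higher, and 10 of 15 regulatory particle genes lower and 1 higher. Over all proteasome genes 21 of 39 were lower and 7 higher, beside 72.3% of all genes called, 38.2% lower and 34.1% higher. Values of the 2 stages did not overlap for 23 of the 39, beside 59.9% of all genes. Under quantile normalization the share called is thus that of the array as a whole, and what differs in number is the split between directions. The median was -1.30 in the core and -0.86 in the regulatory particle, beside -0.06 over all genes, with no test of the difference between the particles. Fitted within slide 3 alone, 21 were lower and 6 higher, with medians of -1.08 in the core and -0.52 in the regulatory particle.

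The split moved with the scaling of the arrays. Median scaling called 15 proteasome genes higher and 15 lower, cyclic loess 10 higher and 9 lower, no normalization between arrays 2 higher and 29 lower, and the authors' processed values 7 higher and 23 lower. Of all genes, these 4 called 88.2%, 34.7%, 75.8% and 72.6%, respectively. Median scaling also shifted the median of all genes to 1.72, so relative to all genes the core median was -1.24 under quantile normalization, -1.16 in the authors' values, -0.34 under cyclic loess and -2.63 under median scaling. The regulatory particle stood at -0.81, -0.42, 0.14 and -1.70 in the same order and the activators at 1.77, 1.45, 1.68 and 0.05. The core median minus the regulatory particle median was -0.44 under quantile normalization and between -0.92 and -0.48 under the other 4.

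**Figure D3:**
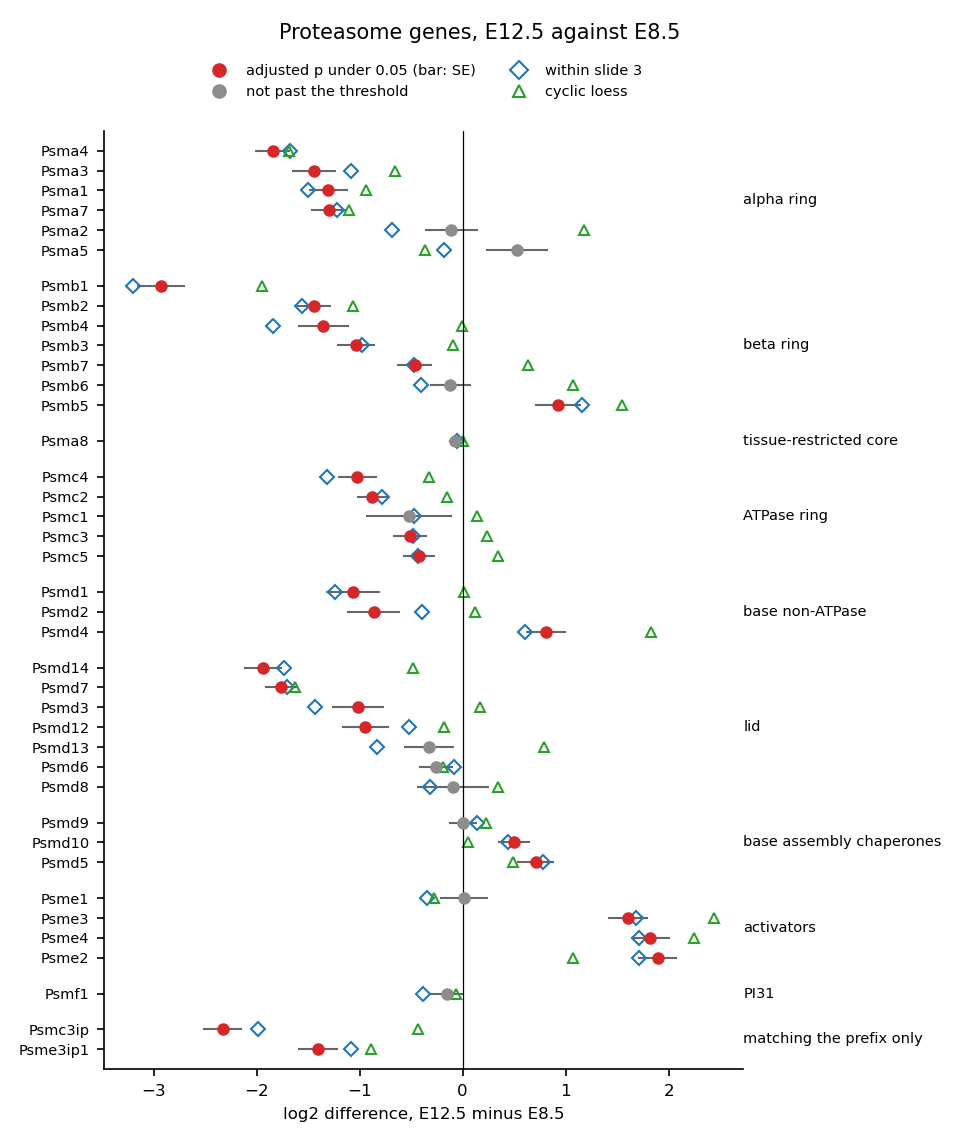
Log2 difference of each of 39 proteasome genes between E12.5 and E8.5 (horizontal axis) by subcomplex (rows); filled points and bars are the difference and SE, red where adjusted p is under 0.05, diamonds are the values within slide 3 and triangles those under cyclic loess. Psma4, Psma7, Psmd7 and Psmb2 lie left of 0 by all 3 measures and Psme2, Psme3 and Psme4 right of it, while Psmb7, Psmc3, Psmc5 and Psmd3 lie right of 0 under cyclic loess.

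**Figure D4:**
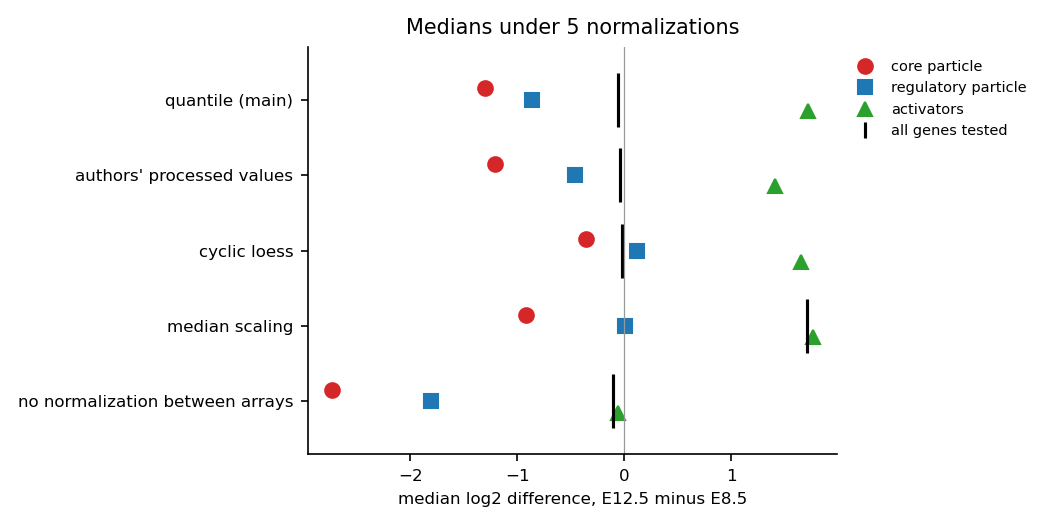
Median log2 difference between E12.5 and E8.5 (horizontal axis) of 13 core genes, 15 regulatory particle genes, 4 activator genes and all genes tested (black bars) under 5 normalizations (rows). The core median is left of the black bar in each row; the regulatory particle median is right of it under cyclic loess (0.14 relative to all genes) and the activator median is near it under median scaling and without normalization (0.05 relative to all genes).

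Of the activators, 3 of 4 genes rose from E8.5 to E12.5 under quantile normalization, and with no normalization between arrays Psme2 turned to -0.16. Psme2 encodes a subunit of the ring cap that interferon induces in other cells. Its level was 5.36 to 6.10 at E8.5 (median 5.86), 6.23, 6.19 and 6.46 on the E9.5 arrays, 6.92, 6.89 and 6.80 on those of E10.5, 7.30, 7.76 and 7.08 on those of E11.5, and 7.29, 7.99 and 7.82 on those of E12.5. Each stage up to E11.5 lay above the one before without overlap, and E11.5 and E12.5 overlapped. E12.5 was 3.72-fold above E8.5 (log2 difference 1.89 ± 0.19, adjusted p = 9.08e-09, and 1.71 within slide 3). RefSeq lists Psme2b, a retrotransposed copy of Psme2 that has no probe of its own here, so the probe may read both.

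Psme1, which pairs with Psme2 in that ring, did not follow it, with 0.01 ± 0.23 between E8.5 and E12.5 and -0.34 within slide 3. Its other probe tested fell by 0.93 ± 0.27. The summed signal of the 9 interferon response markers with a probe was 163 to 235 at E8.5, 793 to 910 at E11.5 and 519 to 711 at E12.5, and its part in the rise of Psme2 was not tested. At E11.5 that sum was mostly H2-D1 (9.44, 9.15 and 9.19, log2). Irf1, Ifit1, Ifit3 and Tap1 were undetected at E8.5, E11.5 and E12.5, and H2-K1 at E8.5 and E12.5.

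Psme3, the nuclear cap, had levels of 9.11 to 9.43 at E8.5 (median 9.31), 9.38, 9.47 and 9.56 on the E9.5 arrays, 10.04, 9.79 and 9.83 on those of E10.5, 9.54, 9.45 and 9.75 on those of E11.5, and 11.57, 10.47 and 10.62 on those of E12.5. All E12.5 values of Psme3 lay above every earlier one (E12.5 minus E8.5 1.61 ± 0.20, adjusted p = 1.84e-07, and 1.68 within slide 3). Psme4, the single-chain cap, had 7.61 to 8.21 at E8.5 (median 7.99), 8.02, 8.01 and 7.92 on the E9.5 arrays, 8.26, 8.35 and 8.08 on those of E10.5, 8.68, 8.44 and 8.66 on those of E11.5, and 10.36, 9.54 and 9.44 on those of E12.5. E11.5 already lay above all earlier values of Psme4 and E12.5 above E11.5 (E12.5 minus E8.5 1.82 ± 0.19, adjusted p = 2.03e-08, and 1.72 within slide 3), and its other probe tested also rose, by 0.58 ± 0.17. Psme3 and Psme4 kept their sign under all 24 alternatives, with 0.05 and 0.16 and no call when no normalization between arrays was used.

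Of the 3 base assembly chaperones, which help build the ATPase ring and leave the finished particle, Psmd5 and Psmd10 were called higher at E12.5 than at E8.5, though both turned negative without normalization between arrays, and Psmd9 did not pass by the probe used, while 1 of its other 2 probes was called lower (-0.43 ± 0.15). Psmd5 had levels of 5.94 to 6.43 at E8.5 (median 6.20), 6.71, 6.19 and 6.79 on the E9.5 arrays, 6.99, 7.38 and 7.14 on those of E10.5, 7.39, 7.55 and 7.26 on those of E11.5, and 7.27, 6.84 and 6.65 on those of E12.5. It was highest at E11.5 and still 0.71 ± 0.18 above E8.5 at E12.5 (adjusted p = 0.0013, and 0.78 within slide 3, but -0.88 without normalization between arrays). Psmd10 gave 0.50 ± 0.15 (adjusted p = 0.00608) by the probe used, but its other 2 probes tested were called the other way, at -0.45 ± 0.20 and -0.47 ± 0.19, so its direction is unsettled. Psmf1, the inhibitor PI31, did not pass, at -0.15 ± 0.17.

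The prefix-only genes both fell. Psmc3ip read 6.49 to 7.32 at E8.5 (median 6.80), 7.11, 7.19 and 7.28 on the E9.5 arrays, 7.25, 6.95 and 7.14 on those of E10.5, 6.33, 6.52 and 6.29 on those of E11.5, and 4.61, 4.52 and 4.46 on those of E12.5, where no array detected it. It was at least 3.54-fold lower at E12.5 than at E8.5, with an adjusted p of 2.54e-10 in the limma fit, and its difference was -0.05 under median scaling. Psme3ip1 read 7.25 to 8.17 at E8.5 (median 7.71), 7.42, 7.13 and 7.5 on the E9.5 arrays, 7.38, 7.46 and 7.43 on those of E10.5, 7.08, 7.36 and 7.18 on those of E11.5, and 6.39, 6.41 and 6.05 on those of E12.5, a fall of 1.41 ± 0.19 that kept its call under all 24 alternatives.

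Between neighbouring stages the changes were smaller. From E8.5 to E9.5, 6 of 39 proteasome genes were lower and none higher, beside 19.8% of all genes called, 12.2% lower and 7.55% higher, and values did not overlap for 9 of the 39, beside 20.6% of all genes. The lower genes were 5 of the 13 core genes (Psma1, Psma2, Psmb1, Psmb2 and Psmb4) and Psmc4 of the 15 regulatory particle genes. Psmb1 had the largest difference, -1.76 ± 0.23 (adjusted p = 8.36e-06) and -1.48 within slide 2, and kept its call under all 24 alternatives. For the others the difference shrank within slide 2, from -0.82 to -0.24 for Psma2, from -0.85 to -0.36 for Psmb4, from -0.64 to -0.34 for Psmc4, from -0.71 to -0.51 for Psma1 and from -0.46 to -0.35 for Psmb2, and within slide 2 the count was 2 lower and 1 higher. The other probe of Psmc4 tested gave 0.13 ± 0.13 and that of Psmb2 0.18 ± 0.16, and neither passed. The number called also ran from 1 to 12 on leaving out single arrays, with 1 without E9.5 replicate 2, 3 without E9.5 replicate 1 and 12 without E8.5 replicate 1.

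The E8.5 arrays of slides 2 and 3 differed more for these genes than for genes at large: the median size of the difference between the slide means was 0.40 for the proteasome genes and 0.26 for all genes tested, and slide 3 was higher by a median of 0.23 in the core and lower by 0.07 in the regulatory particle. Replicates 4 to 6 carry the description numbers of replicates 1 to 3, and averaging the arrays of a number gave 10 lower genes from E8.5 to E9.5. E9.5 replicate 1 carries the description number of replicate 2. These arrays correlated at 0.988 over probes, against 0.978 and 0.976 for the other E9.5 pairs, so E9.5 may hold fewer than 3 separate samples, although they were counted as 3.

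From E9.5 to E10.5 a single proteasome gene passed, beside 2.26% of all genes called, 1.6% higher and 0.659% lower, so the count is that of the background. The arrays of the 2 stages did not overlap for 15 of 39 proteasome genes, beside 31.3% of all genes. It was Psma8, the alpha subunit of the testis proteasome, which no array detected at E9.5 (4.56, 4.47 and 4.47) and all 3 detected at E10.5 (4.91, 4.72 and 4.69), a rise of at least 1.20-fold (adjusted p = 0.0313). It was undetected again at E11.5 and E12.5 (a fall from E10.5 of at least 1.24-fold, adjusted p = 0.00372). These values of Psma8 lie at the detection floor. Its probe met the limit of at least 3 arrays only through E10.5, where it read highest. Both calls thus rest on the stage that admitted the gene and are no independent evidence of a change. The call from E9.5 to E10.5 was lost on leaving out any single array of those stages, which lie on different slides, so slide and stage cannot be told apart there. The call from E10.5 to E11.5, both on slide 4, was lost under median scaling alone among 19 alternatives.

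From E10.5 to E11.5, both on slide 4, 7 of 39 proteasome genes were lower and none higher, beside 11.9% of all genes called, 7.46% lower and 4.41% higher. They were Psma3 (-1.01 ± 0.24), Psmd3 (-0.94 ± 0.29), Psmd7 (-0.82 ± 0.18), Psmc3ip (-0.73 ± 0.22), Psmd4 (-0.70 ± 0.23), Psma4 (-0.67 ± 0.20) and Psma8, which was tested only because the E10.5 arrays detected it. The difference was negative for 12 of 13 core and 13 of 15 regulatory particle genes, with medians of -0.46 and -0.45 beside -0.06 over all genes. Values of the 2 stages did not overlap for 26 of the 39 genes, beside 44.1% of all genes tested. Fitted on slide 4 alone the test called 20 lower and 2 higher. Leaving out any 1 of these 6 arrays left 2 to 4 calls, the fewest without E10.5 replicate 1. Psmd7 kept its call under all 19 alternatives by the probe used. Its other probes tested gave -0.71 ± 0.21, which was called, and 0.19 ± 0.22, which did not pass.

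From E11.5 to E12.5, 12 proteasome genes were lower and 6 higher, beside 50.5% of all genes called, 23.8% lower and 26.7% higher. Values did not overlap for 24 of the 39, beside 55.9% of all genes. The higher genes were Psmd4 (1.43 ± 0.23), Psma5 (at least 2.63-fold, from no detection at E11.5), Psme3 (1.31 ± 0.23), Psme4 (1.19 ± 0.22), Psma2 (0.88 ± 0.30) and Psmb6 (0.56 ± 0.23). Falls with the largest sizes were those of Psmc3ip (at least 2.54-fold), Psmd14 (-1.20 ± 0.21), Psmb3 (-0.95 ± 0.21), Psmd2 (-0.95 ± 0.30), Psme3ip1 (-0.92 ± 0.22) and Psmb1 (-0.90 ± 0.27). Psmb3 read 10.87, 10.84 and 10.61 at E11.5 and 9.63, 10.06 and 9.78 at E12.5, without overlap, but its other probe tested gave -0.11 ± 0.20, and that of Psme4 0.39 ± 0.20, and neither passed.

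This last step crosses from slide 4 to slide 3, so stage and slide cannot be told apart, and it also depends on the scaling. Median scaling called 23 proteasome genes higher and 3 lower with the median of all genes at 1.90, cyclic loess 14 higher and 3 lower, and no normalization between arrays 3 higher and 30 lower. Of all genes, these scalings called 84.0%, 23.5% and 78.4%, respectively. Slide as a random block left 4 higher and 7 lower. The core median was -0.27 under quantile normalization, 0.45 under cyclic loess and 0.17 under median scaling, and the regulatory particle median -0.17, 0.64 and 1.03. None of the 18 calls held under all 18 alternatives for single genes.

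From E7.5 to E8.5, on the arrays with 2 rounds of amplification, 4 of the 36 proteasome genes tested were lower and none higher, beside 13.5% of all 8568 genes called, 7.63% lower and 5.86% higher. The count is close to the background, and the median over the proteasome genes was 0.05 against -0.02 over all genes. Of the core genes 2 of 13 were called and of the regulatory particle 1 of 15. Psma7, an alpha subunit, read 8.21, 8.45 and 8.70 at E7.5 and 7.44, 7.30 and 6.76 at E8.5, a difference of -1.29 ± 0.26 (adjusted p = 0.0214). Psma4 read 10.02, 9.97 and 9.97 at E7.5 and 9.45, 8.84 and 8.32 at E8.5 (-1.12 ± 0.28, adjusted p = 0.0429). In both genes the 2 stages did not overlap, and for all 36 genes that was so in 13, beside 32% of all genes.

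The other genes called were Psmd9, a base assembly chaperone, with 6.57, 6.60 and 6.34 at E7.5 and 5.0, 4.94 and 5.81 at E8.5 (-1.25 ± 0.29, adjusted p = 0.0335) by the probe used but -0.46 ± 0.27 and -0.06 ± 0.10, neither called, by its other probes, and Psmd11, a lid subunit, with 4.96, 5.08 and 5.10 against 4.59, 4.60 and 4.65 near the detection floor (-0.44 ± 0.10, adjusted p = 0.0348). Psmb1, with 10.66, 10.76 and 11 at E7.5 and 10.09, 10.36 and 10.57 at E8.5, did not pass. E7.5 replicate 2 lies between replicates 1 and 3 at 24 of the 36 proteasome genes, so it may not be independent of them. It also lies between them at 99.7% of the 355 probes where replicates 1 and 3 differ over 4-fold. Picking probes by that gap favours a value in between, and other pairs were not examined, so this share does not settle the question. Without E7.5 replicate 2, or without E7.5 replicate 3, no proteasome gene was called. A single one passed with E7.5 replicate 1 or E8.5 replicate 2 removed, and 2 with E8.5 replicate 3 removed. The summed primitive erythroid markers were 7438 to 21435 at E7.5 and 51458 to 66232 at E8.5, and those of visceral endoderm 138 to 448 and 781 to 2713. The macrophage and leukocyte markers summed to 3571 to 4974 at E7.5, with Ptprc, Tyrobp and Fcer1g undetected, and 404 to 925 at E8.5. Nearly all of that signal was Laptm5 (12.28, 12.04 and 11.80 at E7.5, and 9.18, 8.66 and 9.86 at E8.5, log2). The epiblast markers summed to 4783 to 7341 and 1695 to 2003, nearly all of it Dnmt3b (12.84, 12.55 and 12.22, then 10.97, 10.74 and 10.82). The endothelial markers summed to 737 to 859 and 294 to 551, with 2 of 7 called lower and 1 higher, and the interferon response markers to 205 to 389 and 192 to 197. The part of these shifts in the differences was not tested.

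**Figure D5:**
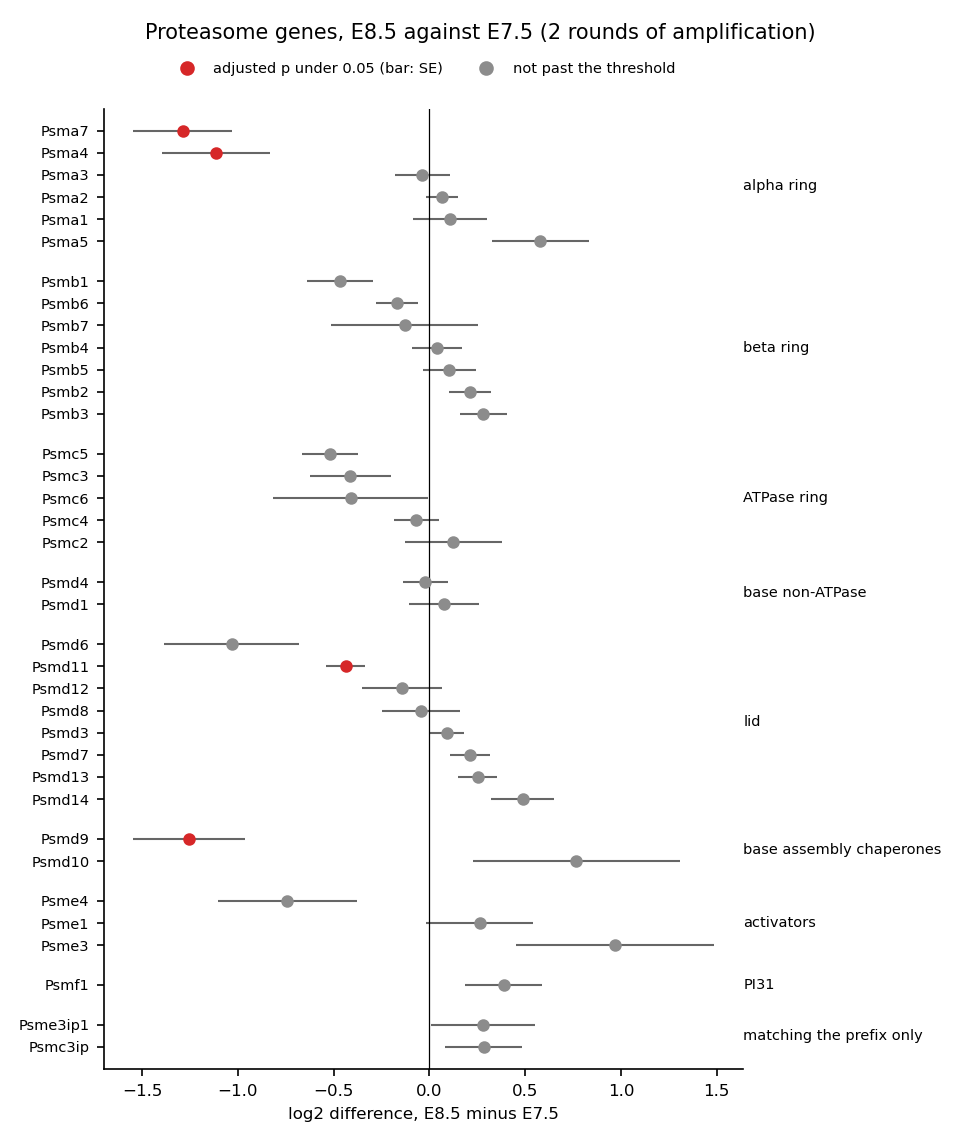
Log2 difference of each of 36 proteasome genes between E8.5 and E7.5 on arrays with 2 rounds (horizontal axis) by subcomplex (rows); points and bars are the difference and SE, red where adjusted p is under 0.05. Psma7, Psma4, Psmd9 and Psmd11 are red and left of 0, and the other genes lie on both sides of 0.

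Other genes of the pathway were taken from a list of 38 genes that assemble, bind or feed the proteasome, of which 27 have a probe and 22 could be tested with 1 round. From E8.5 to E12.5, 14 of the 22 were lower and 1 higher (68.2% called), beside 72.3% of all genes called, 38.2% lower and 34.1% higher, and the median was -0.92 against -0.06 over all genes. Under other scalings, tried after seeing the data, the list had 13 lower and 2 higher with cyclic loess, 12 and 5 with median scaling and 19 and 1 without normalization between arrays, with medians of -0.70, -0.53 and -2.35 against -0.02, 1.72 and -0.10 over all genes. The shares of the list called were 68.2%, 77.3% and 90.9%, beside 34.7%, 88.2% and 75.8% of all genes. The 3 core assembly factors tested moved with the core. Psmg1, a chaperone of the alpha ring, was detected on all 6 E8.5 arrays and on none at E12.5 (at least 10.9-fold lower). Psmg3, another assembly chaperone, gave -2.62 ± 0.32, with spread values of 4.74, 6.54 and 4.62 on the E12.5 arrays. Pomp, the maturation factor of the core, gave -1.81 ± 0.22. Psmg1 fell already from E10.5 to E11.5, by 1.62 ± 0.23.

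Psmb10, an immunoproteasome catalytic gene, had 8.94 to 9.97 at E8.5, 7.63, 7.97 and 7.72 on the E9.5 arrays, 8.09, 7.66 and 7.41 on those of E10.5, 6.11, 6.64 and 6.36 on those of E11.5, and 4.52, 5.13 and 4.56 on those of E12.5. It fell from E8.5 to E9.5 (-1.69 ± 0.22), from E10.5 to E11.5 (-1.35 ± 0.25) and from E11.5 to E12.5 (-1.63 ± 0.25), and 1 of 3 arrays detected it at the end. Psmb8, detected on 2 of 6 arrays at E8.5 and 1 of 3 at E12.5, was the gene called higher (0.35 ± 0.09). Of the factors that carry substrates, Rad23b fell by 2.53 ± 0.21 and Ubqln4 by 0.89 ± 0.20, and the bound deubiquitinase Uchl5 fell by 1.74 ± 0.21. The transcription factors Nfe2l1 (-0.44 ± 0.21) and Nfe2l2 (0.03 ± 0.17) did not pass. From E8.5 to E9.5 the list gave 6 lower and none higher of 22 (27.3%, beside 19.8% of all genes), and from E9.5 to E10.5 none of either kind, beside 2.26%. It gave 5 lower and none higher from E10.5 to E11.5 (22.7%, beside 11.9%). From E11.5 to E12.5 it gave 8 lower and 1 higher (40.9%, below the 50.5% of all genes). With cyclic loess it gave 1 lower and 3 higher (18.2%, beside 23.5%), and with median scaling 2 lower and 13 higher (68.2%, beside 84.0%). The 1 higher gene under quantile normalization was Vcp, the unfoldase p97, at 1.13 ± 0.24, a step from slide 4 to slide 3. Vcp read 11.52, 10.97 and 11 at E12.5, below the E8.5 arrays of slide 3 (11.66, 11.57 and 11.54). On slide 2 the E8.5 arrays read 10.70, 11.02 and 11.17. From E7.5 to E8.5 Uchl5 alone of 21 was lower (4.76%, beside 13.5%).

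Of the 43 genes, 4 could not be tested with 1 round because fewer than 3 arrays detected them: Psma6, Psmb11, Psmc6 and Psmd11. With 2 rounds the genes not tested were Psma6, Psma8, Psmb11, Psmc1, Psmd2, Psmd5 and Psme2. All 18 arrays with 1 round detected 29 of the 43 genes and all 6 with 2 rounds detected 36. Psmb11, the thymus beta subunit, was detected on 2 of the 18 arrays and none of the 6.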

How the data were processed

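The deposited table gives, for 45719 probes of an Illumina mouse bead array, an average signal intensity and a detection p-value per array, per the file headers; 29490 probes pair with 1 gene symbol, 8 with several and 16221 with none. The authors' deposited processed values are on a log2 scale and served as an alternative. The scanner and summary steps behind the intensities are not given in the sources used here. The deposited intensities already share 1 distribution among the 6 arrays of slide 2 and among those of slide 4 (the largest difference of 5 quantiles is 0.642% and 0.404%), but not on slides 1 and 3 (24.6% and 230%).

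From the intensities, neqc in limma 3.58.1 (R 4.3.3) corrected the background, inferred from the detection p-values, added an offset of 16 and applied quantile normalization, separately for the 18 arrays with 1 round and the 6 with 2 rounds. One probe per gene (the highest mean) was kept where at least 3 arrays detected it (detection p under 0.05), which left 9412 and 8568 genes. Stages were compared with lmFit and eBayes with a trend, with no covariate, and p-values were adjusted by Benjamini-Hochberg over all genes of a fit. A gene was called at an adjusted p under 0.05, and SE is the fit's standard error. Where no array of a stage detected a probe, the fold is given as a lower bound against the lowest detected signal. Marker sums are sums of normalized signals on the linear scale. The number of arrays limits the precision. The p-values rest on the spread between arrays within stages, pooled over all stages of a fit. At E8.5 with 1 round that spread includes the difference between slides 2 and 3. Arrays that share a description number were counted as separate samples.

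Per comparison, the genes described array by array are those called, without overlap between the stages, with the 6 largest increases and 6 largest decreases, and those called against the majority of their subcomplex; others are named as examples. The members and lists were chosen with earlier results of these data known. Alternatives covered background offset, normalization, filters, probes, array weights, slide, replicate number as a block and single arrays left out. The run with every probe on its own entered the counts of called genes but not the alternatives for single genes. Samples were not paired by replicate number in the main fit: deviations of same-numbered arrays correlated at -0.153 to 0.434, not above 0.1 in every pair. From E8.5 to E9.5, replicates 1 and 3 gave 0.169 and 0.434, against at most 0.075 and 0.045 with other numbers. Replicate 2 gave -0.126, so pairing at that step was not settled. The steps were tested on simulated data. Promoters are from RefSeq (GRCm38.p6), searched with Python 3.11.15.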

Additional observations from a re-analysis of the deposited data

Results flagged for a closer look

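Psmd10, a base assembly chaperone, read 6.57 on E8.5 replicate 2 of the arrays with 1 round, while the other 5 arrays lay between 6.78 and 6.89. Its gap to the nearest array was 0.656 of the whole range, above Dixon's 95% critical value for 6 arrays. It was the 1 gene of 39 examined that passed this limit, and chance alone passes about 5 percent.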

How the results depend on the processing

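For E12.5 against E8.5 the count of called proteasome genes (28) stayed between 19 and 31 under the 25 alternatives run and between 27 and 29 with single arrays left out, and the F test over stages gave 30 to 37 (main 35), 32 to 36 with single arrays left out. Direction there depended on normalization, as described with the medians. From E7.5 to E8.5 (main 4) the count was 1 without a filter on dim probes, 10 with array weights, 1 with a replicate block and 0 to 4 with single arrays left out. From E8.5 to E9.5 (main 6) it was 16 with median scaling, 13 with cyclic loess, 11 with array weights, 3 with only these stages in the fit, 3 within slide 2, 10 with E8.5 arrays averaged and 1 to 12 with single arrays left out. From E9.5 to E10.5 (main 1) it was 0 with median scaling, without normalization, in the authors' values and with slide as a random block, 9 with array weights, 2 with only these stages in the fit, and 0 to 0 with single arrays left out. From E10.5 to E11.5 (main 7) it was 4 with cyclic loess, 3 without a filter, 20 with array weights, 14 with a replicate block, 12 with slide as a random block, 22 with only these stages in the fit, 22 within slide 4 and 2 to 4 with single arrays left out. From E11.5 to E12.5 (main 18) it was 33 without normalization, 11 with slide as a random block and 13 to 17 with single arrays left out. A replicate block gave 4 from E8.5 to E9.5, 1 from E9.5 to E10.5, 20 from E11.5 to E12.5, 31 for E12.5 against E8.5 and 34 for the F test. The cause of these shifts was not tested. The share of all genes called also moves with the scaling and is not set beside the counts listed here.

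For the 39 differences described array by array, 648 of 796 alternative values kept direction and call, 131 lost the call and 17 changed sign. Over all genes called, 13 of 18 from E11.5 to E12.5 and 14 of 28 for E12.5 against E8.5 changed sign under cyclic loess (5 and 6 genes), median scaling (7 and 4) or no normalization between arrays (6 and 5). None of the genes called in the other comparisons changed sign under the alternatives for single genes, which leave out other probes. Other probes were positive, though not called, for Psmb2 (0.18) and Psmc4 (0.13) from E8.5 to E9.5. From E10.5 to E11.5 another Psmd7 probe was positive and not called (0.19), and a further Psmd7 probe was called lower (-0.71). From E11.5 to E12.5 the changed signs among genes described array by array, as log2 differences, were Psma2 -0.76, Psmb6 -0.95, Psmd4 -0.16, Psme3 -0.28 and Psme4 -0.58 without normalization between arrays, Psmb1 0.42, Psmd2 1.08, Psmd14 1.06 and Psmc3ip 0.62 with median scaling, and Psmb1 0.063, Psmb3 0.050 and Psmd14 0.23 with cyclic loess. For E12.5 against E8.5 the 14 genes were Psmb5 -0.74, Psmd4 -0.77, Psmd5 -0.88, Psmd10 -1.44 and Psme2 -0.16 without normalization, Psmc2 1.45, Psmd2 1.01, Psmd12 1.24 and Psmd14 0.11 with median scaling, and Psmb7 0.63, Psmc3 0.24, Psmc5 0.35, Psmd1 0.02, Psmd2 0.12 and Psmd3 0.16 with cyclic loess. Among all 39 tested, 25 kept their sign with cyclic loess, 28 with median scaling and 30 without normalization. The lowest detected signal of an array lay between 4.39 and 5.17 with 1 round, so differences of genes at that level, such as Psma8, Psmc2 and Psmd9, are bounds or compressed.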

Other observations

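Some proteasome genes were detected with one amplification protocol and not with the other. Psme2 and Psmd5 were detected on all 18 arrays with 1 round and on none of the 6 with 2 rounds. For Psmd11 different probes were used for the 2 protocols, so its detection is not a like comparison. Its probe with 1 round was detected on none of the 18. The probe with 2 rounds was detected on all 6, near the floor (4.59 to 5.10), but on fewer than 3 arrays with 1 round. At E8.5, the stage both protocols share, Psma1 read 9.95 to 10.69 with 1 round and 5.24, 5.29 and 4.66 with 2 rounds, and Psmd14 read 6.31 to 7.15 and 11.04, 11 and 10.70. The protocols were normalized apart and lie on different slides, so no test was made between them, and protocol and slide cannot be told apart.

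With 2 rounds, Psme3 read 8.61 on E8.5 replicate 1 and 10.55 and 10.61 on the other replicates, and Psmd10 read 5.27, 6.64 and 7.53 at E7.5. Both spreads are wider than the difference between the stage means, which did not pass for either gene.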
